A study of Homo sapiens with 9 samples.

Results

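The genes described here are 9 stress-response regulators chosen by name: the basic leucine zipper (bZIP) transcription factors ATF4, ATF3, ATF5, DDIT3 (the protein CHOP), CEBPB, CEBPG and JDP2, and the feedback regulators TRIB3 and NUPR1. They are 9 of 78894 genes in the deposited tables, and each of the 9 passed the filter on low counts. Poly-A RNA of Hap1, a human cell line with a mostly haploid genome that derives from chronic myeloid leukaemia, was sequenced in 3 H448L, 3 R227Q and 3 WT libraries. Cells of every group lacked the endogenous SARS2 gene, carried a doxycycline-inducible FLAG-tagged SARS2 copy that was left uninduced for 6 days, and expressed a myc-tagged copy (SARS2+int14-myc) that was H448L, R227Q or WT. SARS2 is the synthetase that charges mitochondrial tRNA with serine. Whether replicate libraries stem from separate cultures or clones is not stated in the labels. The p-values thus cover only library-to-library spread, which may be technical. In CPM, a gene's count scaled by the library total, SARS2 mRNA itself was at 7.88, 8.68 and 7.93 CPM in H448L, 8.68, 8.35 and 7.09 CPM in R227Q, and 7.70, 8.54 and 6.20 CPM in WT. These values do not tell its copies apart.

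ATF4 is the central effector of the integrated stress response. When an eIF2alpha kinase senses mitochondrial, ER or amino acid stress, general translation falls while the ATF4 mRNA, whose upstream reading frames normally divert ribosomes, is translated better, so that ATF4 protein can rise without its mRNA. ATF4 then pairs with other bZIP proteins such as C/EBP factors on composite C/EBP-ATF elements and switches on amino acid and redox genes together with CHOP, ATF3, ATF5, TRIB3 and NUPR1. The tables hold mRNA only, and neither ATF4 protein nor eIF2alpha phosphorylation was measured.

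DDIT3 and CEBPB mRNA rose in both variants, in a fit with a term for the submission to the sequencing service (described below). DDIT3 was 1.57-fold higher in H448L and 1.72-fold higher in R227Q than in WT (edgeR quasi-likelihood test with Benjamini-Hochberg adjustment over all genes, log2 fold change 0.65 ± 0.08 and 0.78 ± 0.06 (SE), 3 libraries per group). CEBPB was 1.20-fold higher in H448L and 1.32-fold higher in R227Q. ATF5, TRIB3 and ATF4 rose in R227Q by smaller amounts. CEBPG, JDP2, ATF3 and NUPR1 did not pass the test in either variant, and no member passed it between H448L and R227Q. Without the submission term DDIT3 stood at 0.14 in H448L and 0.55 in R227Q and passed in neither. CEBPB in R227Q was then the only member to pass against WT.

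Of the 9 members, 2 rose in H448L and 5 rose in R227Q, and none fell (adjusted p under 0.05). Among all 16908 tested genes, 2.97% were called higher in H448L and 7.50% in R227Q, and 7.97% and 17.4% were called in either direction. The members' median log2 fold change was 0.20 in H448L and 0.25 in R227Q, against 0.01 and 0.00 over all genes. The comparisons of H448L and of R227Q share the WT libraries, so their values stand side by side and are not independent.

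These genes also differed by the prefix of the processed column names, SDKYMR or 4LJFHN. The prefix is read here as the submission to the sequencing service, an inference from the names. WT 1, WT 2 and R227Q 1 came from submission SDKYMR, and the other 6 libraries, the H448L libraries among them, from submission 4LJFHN. Total counts ran from 9900892 to 12991050 per library, so that 1 count stood for 0.0770 to 0.101 CPM. With genotype held fixed, 8 of the 9 members differed between submissions by the edgeR test, all but ATF3, against 43.8% of all tested genes. SDKYMR was above 4LJFHN by 0.71 ± 0.06 on the log2 scale for DDIT3, 0.52 ± 0.04 for ATF4, 0.60 ± 0.07 for TRIB3, 0.73 ± 0.07 for CEBPG and 1.18 ± 0.12 for JDP2. CEBPB, ATF5 and NUPR1 were lower in SDKYMR, at −0.25, −0.27 and −0.65. Marker genes moved with the submission too. HBG1, a fetal globin gene with a near-identical neighbour, was listed at 0 in the 3 SDKYMR libraries and at 13 to 19.9 CPM in the 6 others. COL1A2, a collagen gene, stood at 0.155 to 0.385 CPM in SDKYMR and at 5.34 to 10.2 CPM in 4LJFHN. Over their whole lists, 8 haematopoietic markers summed to 2.71 to 2.80 CPM in SDKYMR and 15.5 to 22.9 CPM in 4LJFHN, 5 fibroblast markers to 18.9 to 23.7 and 51.1 to 63.8 CPM, and 4 epithelial markers to 78 to 92 and 78.8 to 89.7 CPM. The haematopoietic difference lay in HBG1: the 7 other markers summed to 2.71 to 2.80 CPM in SDKYMR and 2.25 to 3.37 CPM in 4LJFHN, and PTPRC ran the other way (0.544 to 0.693 CPM in SDKYMR and 0 to 0.303 CPM in 4LJFHN). MPO, GATA1 and DCN were at 0 in SDKYMR, and BCR and ABL1, the partners of the fusion that Hap1 carries, were detected in every library (12.7 to 16.3 CPM summed). Between genotypes, COL1A1 (0.29 ± 0.07, edgeR adjusted p = 0.0047) and KRT18, a keratin (0.15 ± 0.05, edgeR adjusted p = 0.044), were also higher in R227Q than in WT, and no tested marker passed in H448L. The part of these markers in the members' changes was not tested. The edgeR comparisons between genotypes, above and below, therefore carry a submission term. For the members that passed the test, the values within submissions are given beside it.

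**Figure D1:**
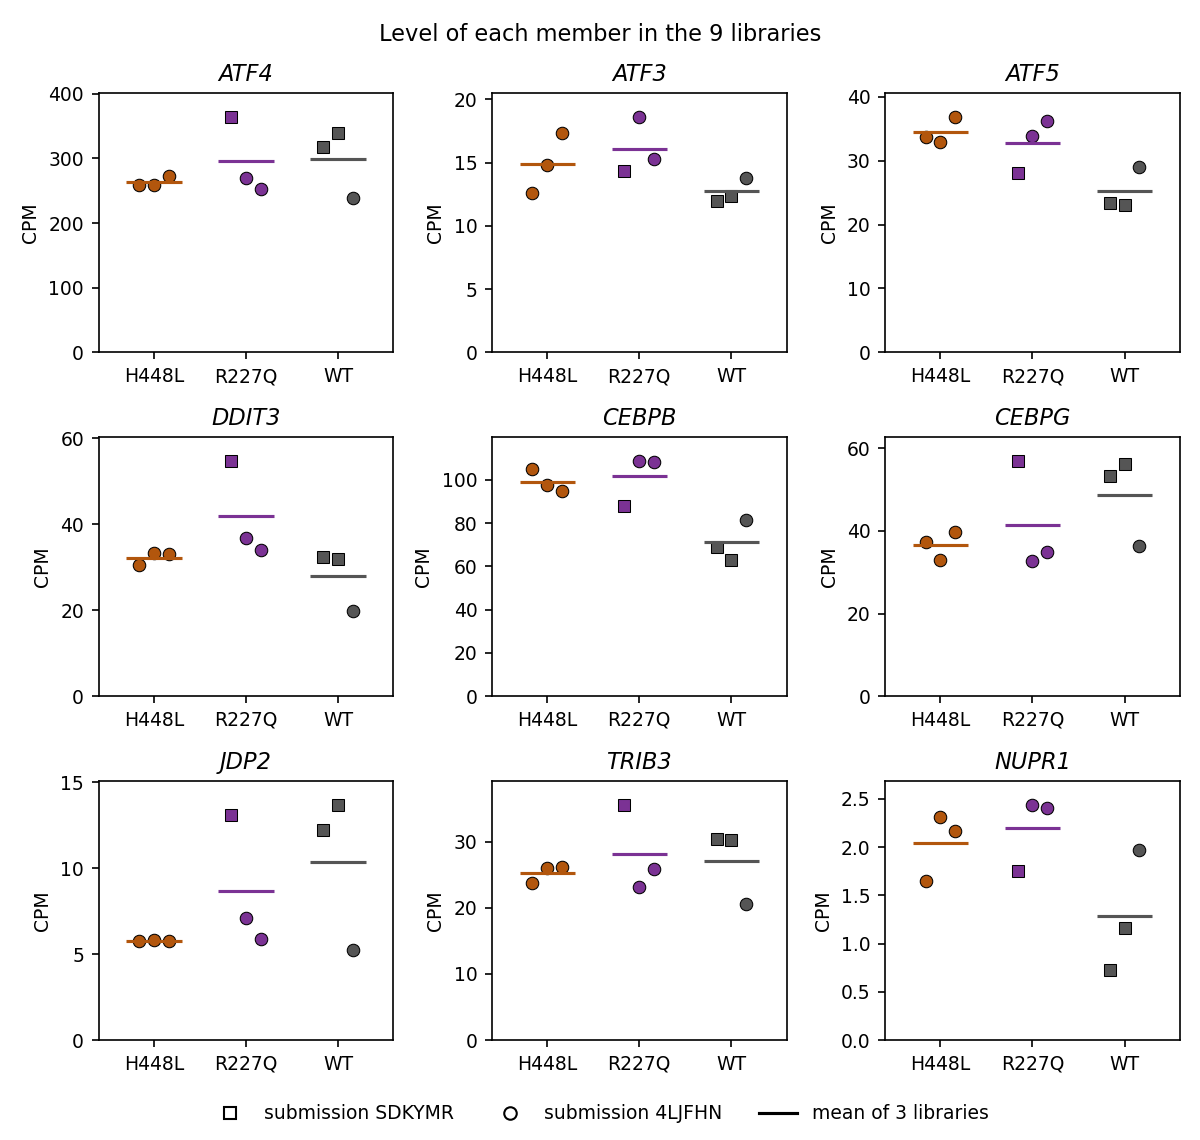
Level of each of the 9 genes in CPM (vertical axes, each starting at 0) in the H448L, R227Q and WT libraries. Points are single libraries, squares submission SDKYMR and circles 4LJFHN, and bars are group means. DDIT3 in WT was 31.9 to 32.3 CPM in SDKYMR and 19.7 CPM in 4LJFHN, and within each shape the R227Q points lie above the WT points.

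Per kilobase of annotated exon, ATF4 was the most abundant member, at 105 CPM per kb in H448L, 117 in R227Q and 119 in WT on average. CEBPB followed at 50.7, 52.0 and 36.3 and DDIT3 at 24.6, 32.0 and 21.4. CEBPG, ATF5 and TRIB3 had overlapping ranges over the 9 libraries, from 5.97 to 12.9 CPM per kb. ATF3 ranged from 2.97 to 4.60, JDP2 from 0.842 to 2.20 and NUPR1 from 0.129 to 0.430. Exon lengths are the union of all annotated transcripts and can be longer than any 1 mRNA, to a different extent per gene, so this order is approximate. Whether counts scale with length under this protocol was not tested. In CPM not divided by length, the means of CEBPG and DDIT3 were 36.7 and 32.2 in H448L, 41.5 and 41.8 in R227Q, and 48.5 and 28 in WT.

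ATF4 (ENSG00000128272, GRCh38 chr22:39519695-39522685) changed least of the members that passed the test in R227Q. It stood at 258.8, 258.8 and 272.6 CPM in H448L 1 to 3, at 363.9, 269.6 and 252.2 CPM in R227Q 1 to 3, and at 317.2, 339.7 and 238.6 CPM in WT 1 to 3. The groups overlap, and the highest 3 values are the SDKYMR libraries. Within each submission every variant library was above every WT library, but in 4LJFHN the only WT library is WT 3. The share of all genes with such separation was not counted, neither here nor for the members below. The fitted change was 0.13 ± 0.05 in H448L (edgeR adjusted p = 0.11) and 0.13 ± 0.04 in R227Q (edgeR adjusted p = 0.027). Within submissions R227Q was higher by 0.15 in SDKYMR and 0.13 in 4LJFHN, and H448L by 0.14 in 4LJFHN. The R227Q call was lost with DESeq2, in 4LJFHN alone, and without R227Q 1 (0.12), R227Q 2 (0.12), WT 1 (0.10) or WT 3 (0.14), and without the submission term the value was −0.04 in R227Q and −0.24 in H448L.

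DDIT3 (ENSG00000175197, chr12:57516588-57521737, minus strand) encodes CHOP, a bZIP protein induced by ATF4 that dimerizes with C/EBP factors and is linked to cell death under lasting stress. Its level was 30.4, 33.2 and 33.0 CPM in H448L, 54.7, 36.7 and 34.0 CPM in R227Q, and 32.3, 31.9 and 19.7 CPM in WT. All R227Q libraries were above all WT libraries. The H448L libraries lie close to WT 1 and WT 2, which came from the other submission, and above WT 3 from their own. R227Q rose with an edgeR adjusted p of 8.4e-10 and H448L with 4.2e-06. Among the 16908 genes DDIT3 ranked 15 by p in R227Q and 37 in H448L. R227Q was above WT by 0.77 in SDKYMR and 0.84 in 4LJFHN, and H448L by 0.70 in 4LJFHN. The call held in 17 of 18 alternatives in each variant, with values from 0.76 to 0.83 in R227Q and 0.61 to 0.68 in H448L, and was lost without the submission term (0.55 in R227Q and 0.14 in H448L). DDIT3 exons share 355 bases with MARS and 58 with MBD6 on the other strand and 105 with a gene on the same strand, and whether counting used the strand is not stated, which leaves its counts uncertain to that extent.

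CEBPB (ENSG00000172216, chr20:50190734-50192689), a C/EBP factor that binds ATF4 targets and pairs with CHOP and ATF4, was the other member that rose in both variants. It measured 104.8, 97.8 and 94.9 CPM in H448L, 88.1, 108.8 and 108.1 CPM in R227Q, and 68.8, 63.2 and 81.3 CPM in WT. Neither variant overlaps WT, and the share of all genes without such overlap was not counted. CEBPB was lower in SDKYMR (−0.25), the submission of WT 1 and WT 2. This gap in raw CPM thus includes a submission difference. The change was 0.27 ± 0.06 in H448L (edgeR adjusted p = 0.0049) and 0.41 ± 0.05 in R227Q (edgeR adjusted p = 1.7e-06). R227Q exceeded WT by 0.42 among SDKYMR libraries and 0.41 among 4LJFHN libraries, and H448L by 0.28 in 4LJFHN. The R227Q call held in 18 of 18 alternatives (0.37 to 0.43 with a submission term, 0.49 without it). The H448L call was lost without WT 3 (0.27, edgeR adjusted p = 0.18), without the submission term (0.43, 0.073) and with the replicate number as a block (0.19, 0.077). CEBPB exons share 231 bases with the antisense gene CEBPB-AS1.

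CEBPG (ENSG00000153879, chr19:33373330-33382686) encodes a C/EBP protein without an activation domain of its own that dimerizes with ATF4. Its mRNA was 37.3, 32.9 and 39.8 CPM in H448L, 56.9, 32.7 and 34.8 CPM in R227Q, and 53.2, 56.1 and 36.4 CPM in WT. The values split by submission and not by genotype. The fitted change was 0.05 (95% interval −0.11 to 0.22) in H448L and −0.02 (−0.15 to 0.12) in R227Q (edgeR adjusted p = 0.77 and 0.89). Within submissions R227Q differed by 0.06 in SDKYMR and −0.11 in 4LJFHN.

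**Figure D2:**
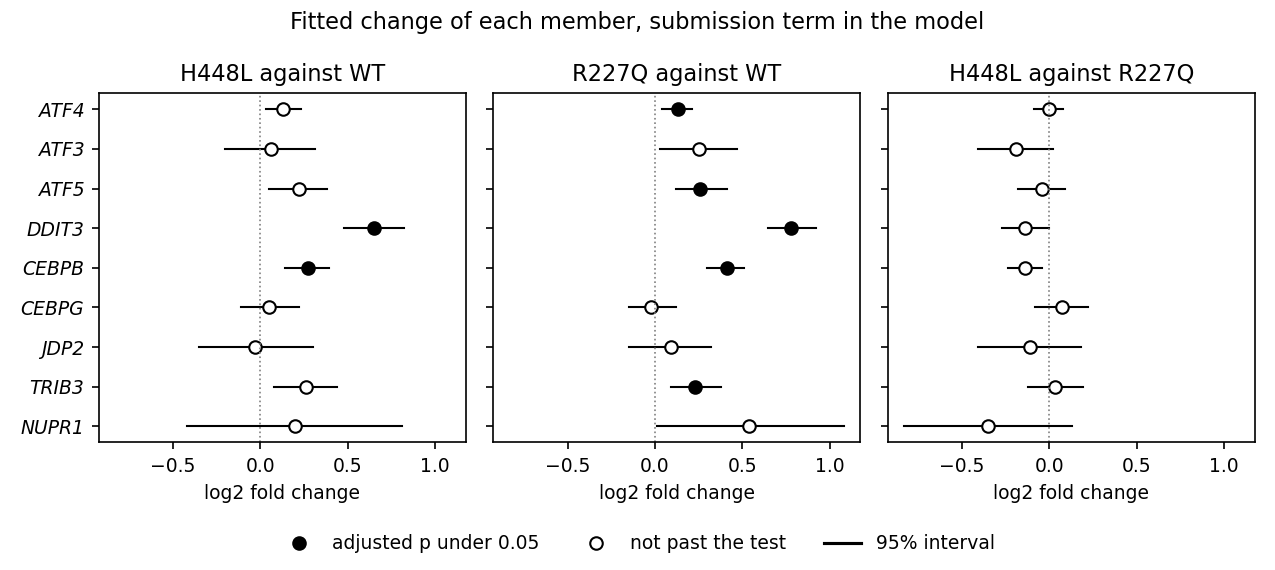
Fitted log2 fold change of each member (horizontal axis) in H448L against WT, R227Q against WT and H448L against R227Q, with 95% intervals. Filled points passed the test. DDIT3 lies farthest to the right in both comparisons with WT (0.65 and 0.78), and every point of H448L against R227Q is open.

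ATF5 (ENSG00000169136, chr19:49928702-49933935), a bZIP factor controlled at translation like ATF4 and linked to the mitochondrial unfolded protein response, was at 33.7, 32.9 and 36.8 CPM in H448L, 28.1, 33.9 and 36.2 CPM in R227Q, and 23.4, 23.1 and 29 CPM in WT. H448L does not overlap WT, whereas the lowest R227Q value, from SDKYMR, is under the WT 3 value. ATF5 too was lower in SDKYMR (−0.27), the submission of WT 1 and WT 2. The change was 0.22 ± 0.08 in H448L (edgeR adjusted p = 0.097) and 0.26 ± 0.07 in R227Q (edgeR adjusted p = 0.0093), and R227Q was higher by 0.27 in each submission. The R227Q call was lost with DESeq2, in 4LJFHN alone, without R227Q 1 (0.27) or WT 3 (0.26), and without the submission term (0.35). ATF5 exons share 626 bases with NUP62 on the opposite strand.

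ATF3 (ENSG00000162772, chr1:212565334-212620777) is an early stress-induced bZIP factor that often represses its targets. It had 12.6, 14.8 and 17.3 CPM in H448L, 14.3, 18.6 and 15.3 CPM in R227Q, and 12, 12.4 and 13.8 CPM in WT. R227Q lies above WT in all libraries and H448L overlaps WT. The values were 0.06 (95% interval −0.20 to 0.31) in H448L and 0.25 (0.03 to 0.47) in R227Q, with edgeR adjusted p = 0.85 and 0.11. ATF3 was called in 0 of 18 alternatives in either variant; at an unadjusted edgeR p the R227Q value had 0.027.

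JDP2 (ENSG00000140044, chr14:75427716-75474111), a bZIP repressor that partners with JUN and ATF proteins, was the member with the largest submission difference. It stood at 5.79, 5.81 and 5.76 CPM in H448L, at 13.1, 7.10 and 5.91 CPM in R227Q, and at 12.2, 13.7 and 5.25 CPM in WT. The 3 values above 12 CPM are the SDKYMR libraries. The fitted change was −0.03 (−0.35 to 0.30) in H448L and 0.09 (−0.15 to 0.32) in R227Q (edgeR adjusted p = 0.95 and 0.68).

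TRIB3 (ENSG00000101255, chr20:362835-397559) encodes a pseudokinase that ATF4 and CHOP induce and that in turn restrains ATF4. Its level was 23.7, 26.0 and 26.1 CPM in H448L, 35.6, 23.2 and 25.8 CPM in R227Q, and 30.4, 30.2 and 20.5 CPM in WT. Groups overlap over all libraries. Within each submission each variant library was above the WT libraries, which in 4LJFHN means above WT 3 alone. The change was 0.26 ± 0.09 in H448L (edgeR adjusted p = 0.064) and 0.23 ± 0.07 in R227Q (edgeR adjusted p = 0.022). Inside SDKYMR, R227Q was higher by 0.23, and inside 4LJFHN R227Q was higher by 0.25 and H448L by 0.30. The R227Q call was lost with DESeq2, in 4LJFHN alone, without the submission term (0.03), and without R227Q 1 (0.25), R227Q 3 (0.20), WT 2 (0.23) or WT 3 (0.22). H448L passed with upper-quartile factors (0.28) and without R227Q 3 or H448L 1 (0.30 each).

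NUPR1 (ENSG00000176046, chr16:28532708-28539174, minus strand) encodes a small stress-induced chromatin protein, and it was scarce. Its counts were 18.5, 25.0 and 21.5 in H448L, 21.5, 27.5 and 29.75 in R227Q, and 9.5, 15.0 and 21.75 in WT, or 1.65, 2.31 and 2.17, 1.75, 2.44 and 2.41, and 0.731, 1.16 and 1.97 CPM. WT 3 lies inside the range of both variants. The intervals were wide, with estimates of 0.20 (−0.42 to 0.81) in H448L and 0.54 (0.01 to 1.08) in R227Q, and did not pass (edgeR adjusted p = 0.78 and 0.17).

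The direct comparison asked whether the variants differ from each other. CEBPB had the smallest unadjusted edgeR p of the members, 0.0099, and ranked 632 by p among the 16908 genes. Of the 9 members, 0 passed the edgeR test. Limma-voom also called 0, and DESeq2 gave an adjusted p for ATF4 alone, so it could not call the others. Over all genes 0.207% were called, 0.0828% higher and 0.124% lower. DDIT3 was −0.14 in H448L relative to R227Q (95% interval −0.27 to 0.00, edgeR adjusted p = 0.46) and CEBPB −0.14 (−0.24 to −0.04, edgeR adjusted p = 0.26). ATF4 was at 0.00 (−0.09 to 0.08) and TRIB3 at 0.03 (−0.12 to 0.19). NUPR1 (−0.83 to 0.13), JDP2 (−0.41 to 0.18) and ATF3 (−0.41 to 0.02) had the widest intervals. These intervals do not show that the variants act alike.

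DDIT3 was also set against ATF4 within each library, which removes depth but not submission, a measure added after the values were seen. DDIT3 counts were 11.7%, 12.8% and 12.1% of ATF4 counts in H448L, 15.0%, 13.6% and 13.5% in R227Q, and 10.2%, 9.39% and 8.26% in WT. The 3 groups do not overlap, and inside 4LJFHN H448L (11.7% to 12.8%) and R227Q (13.5% and 13.6%) were above WT 3 (8.26%), as R227Q 1 (15.0%) was above WT 1 and WT 2 in SDKYMR. The means were 12.2% ± 0.551 in H448L, 14% ± 0.855 in R227Q and 9.28% ± 0.957 in WT (SD, n = 3 each). The two-sided exact permutation p was 0.10 for each of the 3 pairs of groups, the smallest that 3 against 3 libraries allow (0.20 when adjusted over the 6 tests), so the test could not pass. It treats libraries of both submissions as exchangeable, although SDKYMR holds 2 WT, 1 R227Q and 0 H448L libraries. TRIB3 counts were 9.15%, 10.1% and 9.56% of ATF4 counts in H448L, 9.78%, 8.60% and 10.2% in R227Q, and 9.59%, 8.89% and 8.61% in WT. Here the groups overlap, and the exact permutation p was 0.30 for H448L and 0.50 for R227Q against WT. These shares are not per length and do not show that either gene was constant. As the fitted change of ATF4 was 0.13 in each variant, the DDIT3 ratio largely repeats the DDIT3 values and is not separate support. The share of all genes with such separation over ATF4 was not counted, and WT 3 is the only WT library in 4LJFHN.

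**Figure D3:**
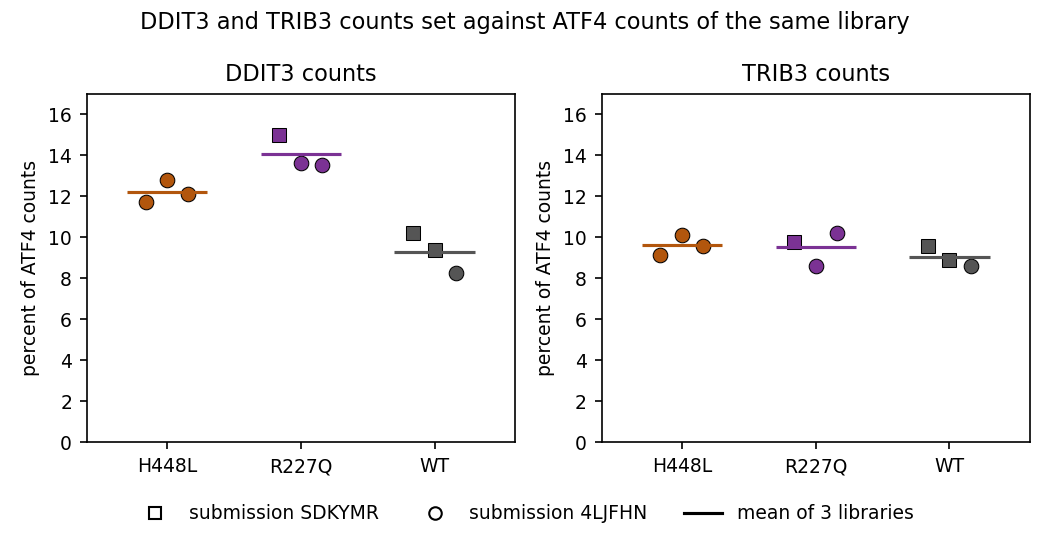
DDIT3 counts (left) and TRIB3 counts (right) as a percent of the ATF4 counts of the same library (vertical axes from 0), for H448L, R227Q and WT; squares are submission SDKYMR, circles 4LJFHN, bars means of 3 libraries. For DDIT3 the groups are apart (11.7 to 12.8%, 13.5 to 15.0% and 8.26 to 10.2%), and for TRIB3 they overlap.

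Promoter windows were searched for elements that bind these factors, to set sequence beside the members' different changes. RefSeq windows (GRCh38.p14, 250 bases before to 50 after a start) covered 8 of the 9 members with 19 windows, several per gene, and NUPR1 had none. The C/EBP-ATF core TTNCATCA, on either strand, was found in 3 of these 19 windows, of CEBPG, JDP2 and ATF3, against 3.62% of all 35116 windows. None of those 3 genes passed the test in a variant. Windows of DDIT3, CEBPB, ATF4, ATF5 and TRIB3 held no such letters, which says nothing of sites outside them. The AP-1 motif TGANTCA was in windows of DDIT3 and ATF5 (7.71% of all windows) and the CRE motif TGACGTCA in none (1.85%). In DDIT3 the AP-1 motif lay at −241 or −238, depending on the start, and its stretch overlaps an annotated exon of MBD6. The ATF5 stretch overlaps exons of ATF5 and NUP62. Both DDIT3 windows overlap almost wholly and hold a pair of CCAAT boxes in opposite orientation. A CCAAT on either strand was in 34.6% of all windows and also in windows of CEBPG, ATF3 and CEBPB, and the share of all windows with an opposed pair was not counted. Whether any of these motifs bears on the members' changes was not tested. The stretches below are given 5′ to 3′ on the gene's strand, with the motif or its reverse complement in capitals. They hold the C/EBP-ATF cores of 3 genes and the motifs of DDIT3, and the ATF5 stretch is not shown.
CEBPG chr19:33374061-33374088, plus strand, core at −42 from a start: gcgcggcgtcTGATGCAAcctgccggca
JDP2 chr14:75427996-75428023, plus strand, core at −16 from a start: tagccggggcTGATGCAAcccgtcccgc
ATF3 chr1:212565206-212565233, plus strand, core at −191 from a start: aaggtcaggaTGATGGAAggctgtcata
DDIT3 chr12:57520586-57520614, minus strand, CCAAT pair: CCAATgccggcgtgccactttctgATTGG
DDIT3 chr12:57520739-57520764, minus strand, AP-1 motif: gcgcgcgcaTGACTCAcccacctcct

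Other genes that ATF4 induces, on a list of 37 chosen with earlier results of these data known, rose in part in both variants. Of 35 tested, 13 rose in H448L and 21 in R227Q and 0 fell (37.1% and 60%, against 2.97% and 7.50% of all genes), with medians of 0.18 and 0.22. PCK2, mitochondrial phosphoenolpyruvate carboxykinase, rose by 0.62 ± 0.07 in H448L and 0.72 ± 0.06 in R227Q. ASNS, asparagine synthetase, rose by 0.48 ± 0.06 and 0.55 ± 0.05. INHBE, an inhibin subunit secreted under stress, rose by 1.15 ± 0.15 and 1.47 ± 0.13 (edgeR adjusted p = 6.9e-06 and 2.8e-09). ALDH1L2 and FGF21 did not pass the filter.

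Of 6 tested genes linked to CHOP itself, 0 passed in H448L, and at an edgeR adjusted p of 0.032 PMAIP1, the BH3-only protein NOXA, was the only one of the 6 to pass in R227Q (0.21 ± 0.07). These are 0% and 16.7% higher, against 2.97% and 7.50% of all genes, on few genes. BBC3 (0.14) and PPP1R15A, a phosphatase subunit that reverses eIF2alpha phosphorylation (0.26), did not pass in R227Q (edgeR adjusted p = 0.067 and 0.082). In H448L BCL2L11 stood at −0.27, ERO1A at −0.13 and TNFRSF10B at 0.14 (edgeR adjusted p = 0.18, 0.27 and 0.39).

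The rest of the bZIP family is given beside the shares of all genes, and its counts are small. Of 41 tested of 47, 0 rose and 2 fell in H448L, and 4 rose and 1 fell in R227Q. The shares higher and lower were 0% and 4.88% in H448L and 9.76% and 2.44% in R227Q, against 2.97% and 4.99%, and 7.50% and 9.91%, of all genes. MAF, a large MAF factor, fell by 0.72 in H448L and by 0.94 in R227Q on the log2 scale (edgeR adjusted p = 0.0023 and 5.3e-06). XBP1, the ER stress factor, rose by 0.22 ± 0.04 and BACH2, a repressor that pairs with small MAF proteins, by 0.77 ± 0.18 in R227Q. JUND, an AP-1 subunit, fell by 0.29 in H448L relative to WT and was also lower in H448L than in R227Q (−0.25 ± 0.04, edgeR adjusted p = 0.0022).

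Upstream of ATF4, 0 of 15 genes for eIF2alpha kinases and phosphatase subunits, eIF2alpha, eIF2B, IMPACT and the OMA1-DELE1 relay passed in H448L. In R227Q 1 rose, EIF2B4 (0.33 ± 0.08), and 2 fell, EIF2S1 for eIF2alpha (−0.21 ± 0.04) and EIF2B5 (−0.17 ± 0.06). The shares in R227Q, 6.67% higher and 13.3% lower, were near the 7.50% and 9.91% of all genes.

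Of 13 ER stress genes driven by ATF6 and XBP1, 0 rose in either variant, 6 fell in H448L and 7 in R227Q (46.2% and 53.8%, against 4.99% and 9.91% of all genes). This list too was chosen with earlier results known, and the counts depend on its make-up. It leaves out XBP1 itself and HERPUD1, which was counted with the ATF4 targets, and both rose in R227Q (0.22 ± 0.04 and 0.30 ± 0.06). MANF fell by 0.39 and 0.41 and DNAJB11, an ER co-chaperone, by 0.30 and 0.31 on the log2 scale. Of 9 mitochondrial chaperones and proteases linked to ATF5, 0 rose, 1 fell in H448L and 2 in R227Q. These are 11.1% and 22.2% lower, against 4.99% and 9.91% of all genes, on few genes. HSPE1, the HSP10 co-chaperonin, fell by 0.16 and 0.22 and HSPD1, HSP60, by 0.11 in R227Q.

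**Figure D4:**
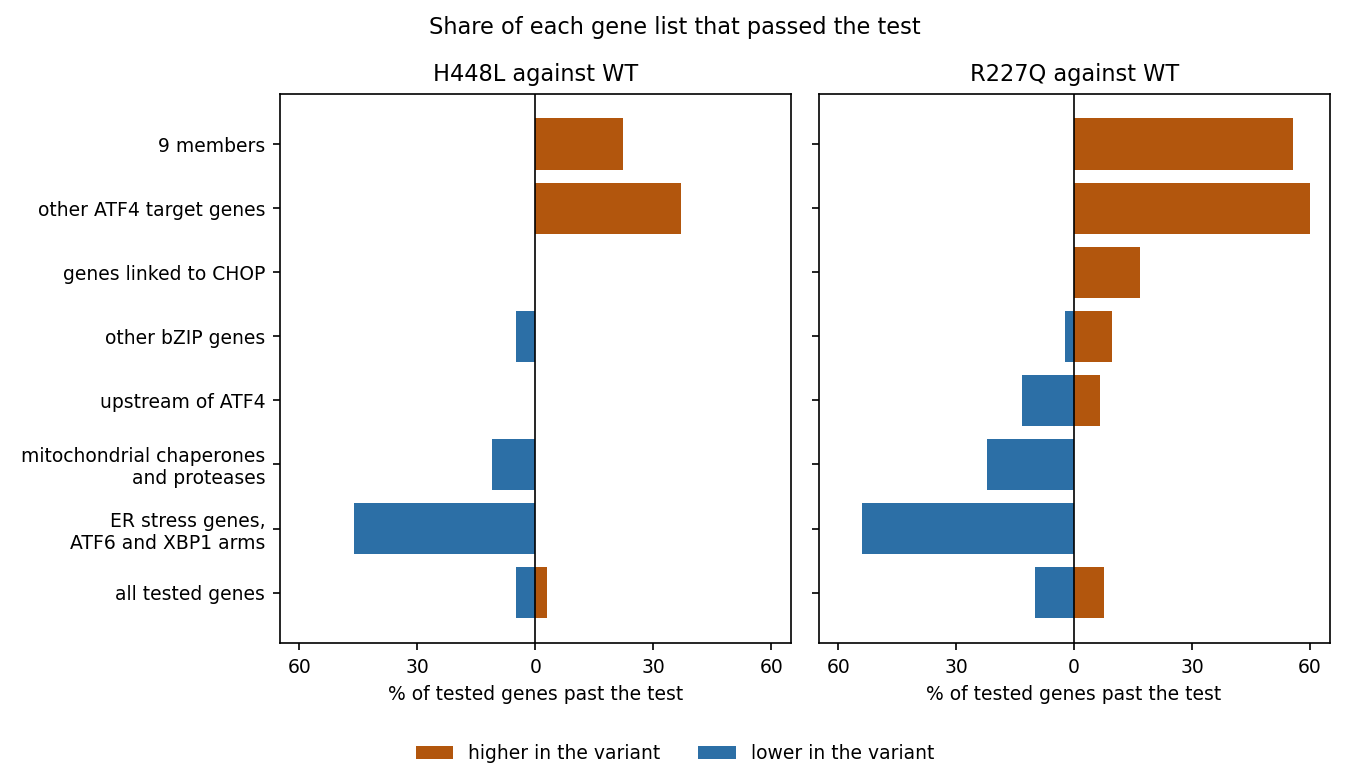
Percent of the tested genes of each list described here (rows) called higher (bars to the right of 0) or lower (bars to the left) in H448L against WT and R227Q against WT, with the 9 members at the top and all tested genes at the bottom. The members and the other ATF4 target genes extend to the right (22.2% and 37.1% in H448L, 55.6% and 60% in R227Q) and the ER stress genes to the left.

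The genes with the most similar pattern were sought by the root mean square difference over the 9 libraries, in log2 CPM with the submission effect removed, among 11130 genes of at least 5 CPM. Nearest to DDIT3, whose own root mean square was 0.355, were PCED1A (0.061), PCK2 (0.066), ADAMTS7 (0.071), ZMAT1 (0.074) and ELFN1 (0.076). Nearest to TRIB3 (own value 0.137) were RASSF7 (0.025), DDX11 (0.032), TRIM33 (0.038), SLC35D1 and WARS1, the cytosolic tryptophanyl-tRNA synthetase (0.040 each). ATF4, with an own value of 0.078, lay nearest to CIZ1 (0.021), GTF3A (0.022), FLOT1 (0.024), ATP5PO (0.025) and HAX1 (0.026). PCK2 and WARS1 also stood on the list of ATF4 target genes, which was chosen with earlier results known. The share of that list among the genes compared was not counted, and a similar pattern does not show shared regulation.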

How the data were processed

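Lysates went to a commercial service for poly-A capture, second-strand synthesis with tagmentation and Illumina sequencing, per the labels' protocols; reads were placed on GRCh38, as the submitters' processing notes name it. The authors deposited estimated counts per gene and CPM per the file headers, CPM being the count over the library total. The aligner, annotation and strand use: not given in the sources used here. The tables held 78986 entries, 92 of them ERCC controls, which were left out. Counts were rounded and fitted with edgeR 4.0.16 (R 4.3.3) on 16908 genes past filterByExpr, with TMM factors (0.969 to 1.02), the 3 groups and the submission, 5 residual degrees of freedom. The biological coefficient of variation was 2.96%. Values inside a submission subtract group means of log2 CPM (prior count 2). Positions, exon lengths and overlaps came from GENCODE gene models on GRCh38, promoter windows from RefSeq.

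The members and lists were chosen with earlier results of these data known. Named genes were the 9 members, the 5 genes most alike to ATF4, DDIT3 and TRIB3, and, per list, the 3 with the smallest p against WT. The result of 1 list is not reported here. On simulated counts for R227Q against WT (16572 genes), 95% of genes changed by 1 on the log2 scale and 68% of those changed by 0.5 were recovered. The simulation gave every gene the same spread, unlike the data. Smaller changes and changes in H448L were not simulated. Alternatives were DESeq2 1.42.0, limma-voom (limma 3.58.1), RLE and upper-quartile factors, no filter, a mean of at least 10 counts, no submission term, 4LJFHN alone, a replicate block and leaving out each library.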

Additional observations from a re-analysis of the deposited data

How the results depend on the processing

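Results for the members hung mainly on the submission term. Members called higher in R227Q numbered 5, against 2 with DESeq2, 1 without the submission term and 2 in 4LJFHN alone; in H448L they numbered 2, against 0 without the term and 1 with the replicate block. Leaving out 1 library gave 2 to 5 members in R227Q (2 without R227Q 1 or without WT 3) and 1 to 3 in H448L (1 without WT 3). Genes called over the whole table moved to 1546, 733 and 54 with DESeq2 (R227Q against WT, H448L against WT, H448L against R227Q), to 312, 147 and 1 without the submission term, to 1138 and 734 in 4LJFHN alone for the comparisons with WT, and to 122 for H448L against R227Q with no filter; without 1 library they ranged from 1093 to 3262, 253 to 1378 and 4 to 91. Signs turned only for values that had not passed the test, apart from ATF4 in R227Q. Without the submission term R227Q had −0.04 for ATF4 and −0.29 for JDP2, H448L had −0.24 for ATF4, −0.47 for CEBPG and −0.16 for TRIB3, and H448L against R227Q had 0.04 for ATF5, −0.21 for CEBPG and −0.19 for TRIB3. In 4LJFHN alone H448L had −0.01 for CEBPG and 0.12 for JDP2, and ATF4 was 0 between variants. Upper-quartile factors gave 0.01 for CEBPG in R227Q. Without 1 library the ranges that crossed 0 were −0.12 to 0.05 for CEBPG and 0 to 0.29 for JDP2 in R227Q, −0.05 to 0.16 for ATF3, −0.01 to 0.15 for CEBPG and −0.18 to 0.12 for JDP2 in H448L, and −0.03 to 0.02 for ATF4, −0.09 to 0 for ATF5, −0.18 to 0.01 for JDP2 and −0.03 to 0.10 for TRIB3 between variants. The causes were not tested.

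Whether libraries with the same replicate number are paired is not stated in the labels. Same-numbered libraries had residual correlations of −0.40 to 0.12. The group and submission terms tie some residuals together (R227Q 1 and WT 3 correlated at 1), so these values cannot decide it. With the replicate block 2669, 1055 and 31 genes were called, CEBPG in R227Q stood at 0 and ATF4 between variants at 0.01. H448L has no SDKYMR library, and its comparison with WT inside a submission rests on WT 3 alone. NUPR1 had the fewest counts of the members, 9.5 to 29.75 per library, and the widest intervals.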
